A study of Homo sapiens with 13 samples.

Results

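The genes of 7 transcription factors of foregut, lung and liver (FOXA1, FOXA2, FOXA3, NKX2-1, HNF4A, GATA4 and GATA6) were compared between 2 lines of human small cell lung cancer (SCLC), H82 and H146, in their maps of open chromatin. They are 7 of the 20033 protein-coding genes of GENCODE release 44 and were chosen by name. For each gene, the accessible regions were counted and measured over the transcription start site (TSS) and 1 kb to either side, over the gene body, and over the gene body with 100 kb to either side, called the gene window here. The windows held 187 of the 206927 regions of H82 and 180 of the 174093 regions of H146.

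Accessibility was measured by ATAC-seq, in which a transposase cuts open DNA, in cells that were untreated or had been kept for 14 days in 100 nM FHD-286, which inhibits SMARCA4 and SMARCA2, the ATPases of a chromatin remodelling complex. The H82 set comprised 3 untreated samples and 3 with FHD-286, and the H146 set 4 and 3. The authors pooled the regions called in every library of a line into 1 atlas, which therefore mixes treated and untreated cells and gives 1 value per line with no replicate. No test between the lines, and none of FHD-286, was possible, and each value is read beside the same value over all protein-coding genes. The depth of the libraries was unknown, and whether H82 had more regions through more open sites or through deeper libraries cannot be told apart.

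FOXA1, FOXA2 and FOXA3 are forkhead pioneer factors, which bind closed chromatin and help to open it, and they act in the formation of foregut, lung and liver. NKX2-1, also called TTF-1, is the homeodomain factor of lung and thyroid epithelium and is widely stained for in the diagnosis of SCLC. HNF4A is a nuclear receptor of hepatocytes and gut epithelium, and GATA4 and GATA6 are zinc finger factors of endoderm and heart that often act beside FOXA proteins.

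The sequences of 3 regions open in a single line and of 3 promoters open in both are shown, since they mark where the lines differed and where they did not. Capitals mark matches, on either strand, to short words known to be bound by factors. The word of the FOXA factors was taken as TGTTTAC, and that of NKX2-1 as CACTTGA. The word of the GATA factors was AGATAA, whereas HNF4 proteins were given CAAAGTCCA. The E-boxes of bHLH factors such as NEUROD1 were CAGCTG and, in a separate search, CAGATG, and the OTX2 word was TAATCC. The NKX2-1 word contains CACTTG, which has the form of an E-box but is neither of the E-boxes searched. Regions are given on the plus strand of hg38, and promoters are the 250 bases before the start of a RefSeq transcript on GRCh38.p14, also on the plus strand.
FOXA1 H146-only region, chr14:37641222-37641421, within TTC6, -45.16 kb from the FOXA1 TSS: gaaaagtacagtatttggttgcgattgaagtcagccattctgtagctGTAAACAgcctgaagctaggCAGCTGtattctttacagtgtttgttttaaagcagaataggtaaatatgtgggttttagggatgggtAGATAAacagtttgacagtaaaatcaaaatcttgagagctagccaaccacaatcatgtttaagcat
GATA6 H146-only region, chr18:22188650-22188849, in a GATA6 intron, 19.06 kb from the TSS: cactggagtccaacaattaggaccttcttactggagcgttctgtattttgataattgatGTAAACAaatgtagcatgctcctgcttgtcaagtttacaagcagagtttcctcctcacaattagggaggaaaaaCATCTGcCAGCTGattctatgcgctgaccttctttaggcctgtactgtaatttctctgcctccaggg
NKX2-1 H82-only region, chr14:36513578-36513846, at the start of the lncRNA SFTA3, 7.303 kb from the NKX2-1 TSS: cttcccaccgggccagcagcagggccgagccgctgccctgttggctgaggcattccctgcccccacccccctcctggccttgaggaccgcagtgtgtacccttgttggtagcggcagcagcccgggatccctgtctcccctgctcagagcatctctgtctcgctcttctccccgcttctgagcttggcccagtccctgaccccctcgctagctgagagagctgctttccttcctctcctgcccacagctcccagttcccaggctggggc
GATA6 promoter, chr18:22169339-22169588: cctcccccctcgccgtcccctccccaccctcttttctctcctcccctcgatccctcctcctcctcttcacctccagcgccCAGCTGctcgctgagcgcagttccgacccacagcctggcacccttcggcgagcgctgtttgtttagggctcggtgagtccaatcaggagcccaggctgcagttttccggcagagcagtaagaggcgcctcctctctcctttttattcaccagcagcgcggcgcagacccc
HNF4A upstream promoter, chr20:44355449-44355698: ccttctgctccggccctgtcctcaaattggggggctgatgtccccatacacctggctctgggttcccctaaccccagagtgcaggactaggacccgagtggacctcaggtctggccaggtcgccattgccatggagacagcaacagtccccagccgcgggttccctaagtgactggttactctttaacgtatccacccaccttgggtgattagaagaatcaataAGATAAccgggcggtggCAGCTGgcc
HNF4A downstream promoter, chr20:44400989-44401238: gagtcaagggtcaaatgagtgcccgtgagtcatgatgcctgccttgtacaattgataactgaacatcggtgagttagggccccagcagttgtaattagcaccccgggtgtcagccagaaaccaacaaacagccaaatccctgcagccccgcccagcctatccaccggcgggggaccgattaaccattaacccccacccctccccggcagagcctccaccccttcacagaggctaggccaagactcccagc

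The H146-only regions were chosen for print because they held a FOXA word, which 2 of the 8 H146-only regions examined for printing did and none of the 3 H82-only regions. Both also held a CAGCTG E-box. The GATA6 promoter held CAGCTG, the upstream HNF4A promoter held a GATA word and CAGCTG, and the H82-only region beside NKX2-1 and the downstream HNF4A promoter held none of the words. Of 35116 RefSeq promoters of 250 bases, 2.98% held the FOXA word, 2.06% the NKX2-1 word, 9.17% the GATA word, 0.325% the HNF4 word, 13.99% CAGCTG, 12.2% CAGATG and 5.62% the OTX2 word. RefSeq promoters were found for 5 of the 6 genes that lie off chromosome 8. The promoter of FOXA1 held none of the words, that of FOXA3 held CAGCTG, and of the promoters of NKX2-1 one held a FOXA and a GATA word and the other held none.

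The atlases had many region edges in common. In all, 19180 regions had the same first and last base in both, which made up 9.27% of the H82 regions and 11.02% of the H146 regions. Of 113588 regions that overlapped exactly 1 region of the other line and were that region's sole partner, 34514 (30.4%) had the same start, whereas each offset of 1 to 10 bp was found in 474 to 746. Identical regions were frequent on chromosome 18, which carries GATA6, at 24.07% of H82 and 18.99% of H146 regions, and on chromosome 6, at 23.53% and 27.19%. The gene windows held 11 identical regions, of which 7 were in that of GATA6, 3 in that of FOXA3 and 1 in that of NKX2-1. Whether the atlases have a library or a processing step in common was not tested, which limits what a shared region means throughout. Sharing is given with and without the identical regions, but pairs with a single edge in common remain in both.

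Of the neuroendocrine markers, the TSS of INSM1, SYP, CHGA, NCAM1 and DLL3 was within 1 kb of a region in both lines, and that of NEUROD1, the factor that defines a subtype of SCLC, in H82 only. The covered share of the NEUROD1 window, which is the percentage of its bases that lie in regions, was 15.9% in H82 and 7.30% in H146. The leukocyte gene PTPRC had no region at its TSS in either line, whereas the fibroblast gene COL1A1 and the endothelial gene PECAM1 had one in both. Expression was not measured in these files.

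The start of 6 of the 7 genes was open in both lines, by a region that reached to within 1 kb of the TSS, and that of GATA4 in neither. None had such a region in H82 only, against 5.1% of all protein-coding genes, and none in H146 only, against 1.86%. Both lines had a region there in 75.4% of all genes and neither line in 17.7%. When the TSS was instead that of the MANE Select transcript, the transcript agreed on by GENCODE and RefSeq, GATA4 had a region in H82 only, against 4.7% of 19061 genes, and again none of the 7 had one in H146 only, against 1.65%.

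**Figure D1:**
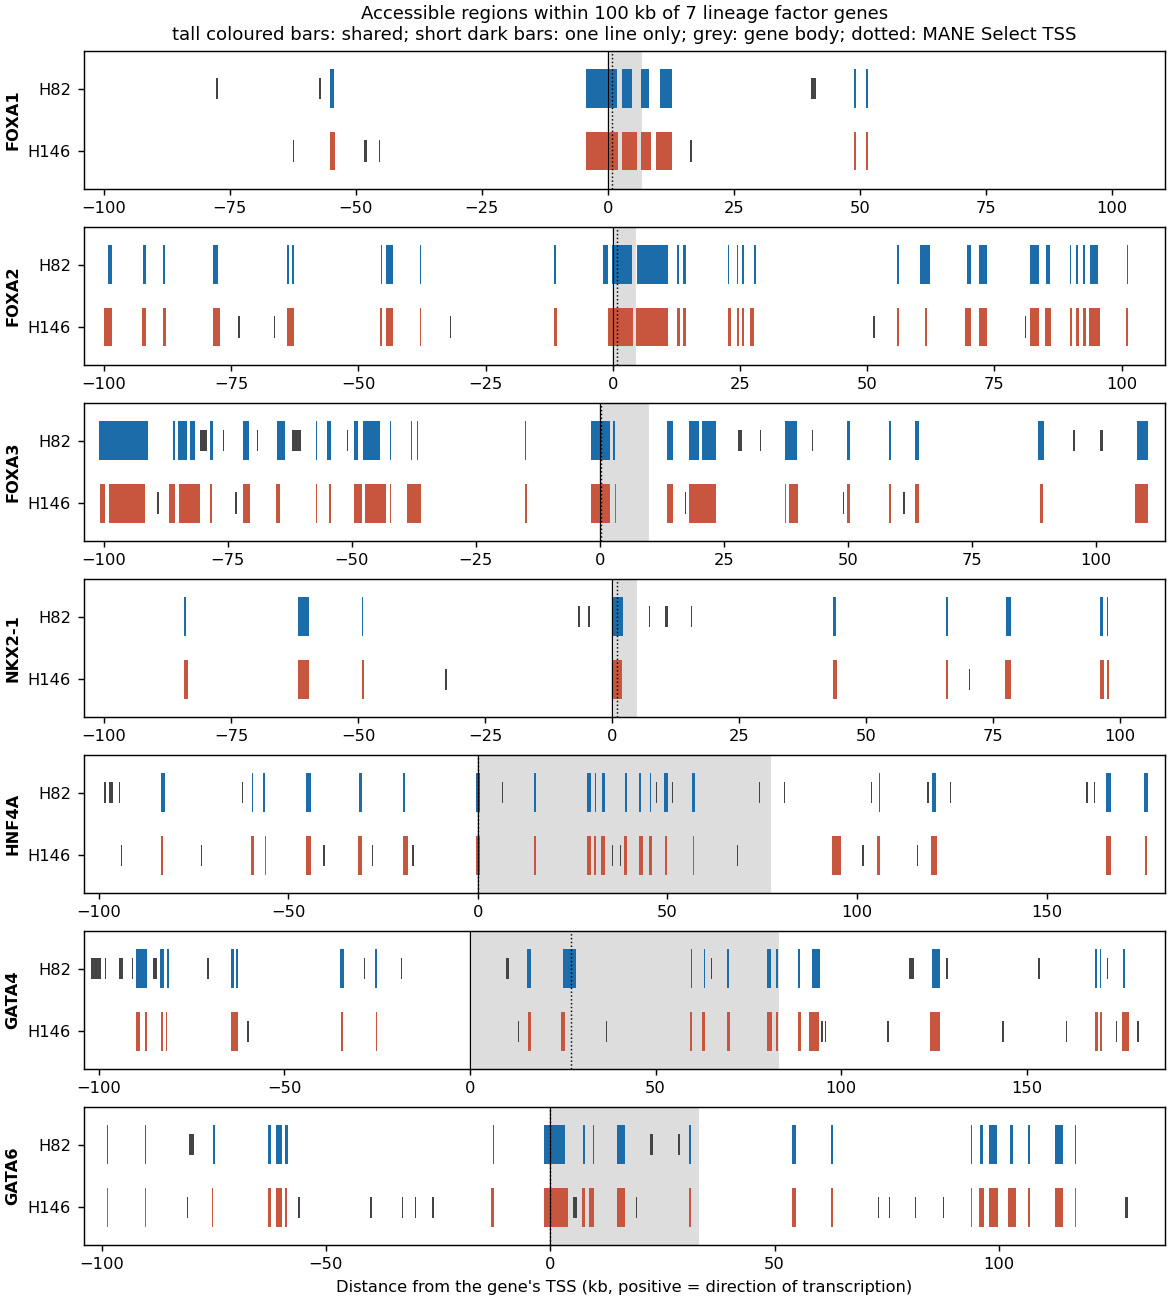
Accessible regions of H82 and H146 (rows) by distance in kb from the TSS of each of the 7 genes, in the direction of transcription. Tall coloured bars are regions that overlap a region of the other line, short dark bars are regions of one line only, grey is the gene body and the dotted line is the MANE Select TSS. FOXA1 had a broad cluster of shared regions at its TSS, all 30 H82 regions around FOXA2 were shared, and the MANE Select TSS of GATA4 lay in an H82 region only.

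FOXA1 (chr14:37589552-37596059, minus strand) lay within a broad open domain in both lines. The region over its TSS spanned 6310 bp in H82 and 6355 bp in H146, so that the entire 2 kb around the TSS was covered in both. This region also held the start of TTC6, a gene transcribed away from FOXA1. Regions covered 57.8% of the FOXA1 gene body in H82 and 75.9% in H146, where the medians over all genes were 7.13% and 5.85%. Genes of every length enter these medians, and gene length was not matched. The FOXA1 window held 10 H82 regions and 11 H146 regions, which took up 7.49% and 8.52% of it, above 50.54% and 65.65% of all genes.

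The open chromatin of FOXA1 was concentrated at the gene. Its window was covered 2.75 times as densely as the surroundings, the rest of the sequence within 1 Mb of the gene, in H82 and 3.05 times as densely in H146, above 94.7% and 96.1% of all genes. Of the FOXA1 regions, 3 were found in H82 only (30.0%) and 4 in H146 only (36.4%), against 40.7% and 29.5% of all regions. The H146-only region within TTC6 printed above was one of the 4. All 7 pairs of matched regions were wider in H146.

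FOXA2 (chr20:22580998-22585455, minus strand) had a dense landscape that the lines held in common, broader in H146. None of its 30 H82 regions was absent from H146, whereas 5 of its 33 H146 regions were absent from H82 (15.2%, against 29.5% of all H146 regions). Among the 12713 genes with at least 20 H82 regions in the window, 86 (0.676%) had no region particular to H82. Regions took up 13.9% of the window in H82 and 17.03% in H146. The window was covered 3.44 and 3.78 times as densely as its surroundings in the respective lines, above 97.7% and 98.3% of all genes.

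FOXA2 regions were also wider in H146. There a region of 4884 bp ran over the TSS and ended at -0.996 kb upstream. In H82 a region of 3885 bp ran over the TSS and ended at -0.18 kb. After a gap, a second H82 region of 931 bp overlapped only the upstream end of the H146 region and reached to -1.866 kb, farther upstream than H146. The 2 kb around the TSS was thus covered to 62.3% in H82 and 99.8% in H146, while the 2 kb around the MANE Select TSS was fully covered in both. Of 26 pairs of matched regions, 25 were wider in H146, and a share this large was found in 3 of the 5339 genes with at least 20 pairs, FOXA2 included. The exception was a region of 1908 bp in H82 that measured 377 bp in H146.

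The broadest region around FOXA2 lay downstream of the gene, over LINC00261, a lncRNA that is expressed in endoderm. It measured 5986 bp in H82 and, in H146, 6255 bp. The start of LINC00261 and that of LINC01747 were open in both lines, and that of LNCNEF in neither. The widest H146-only region spanned 383 bp.

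FOXA3 (chr19:45863989-45873797, plus strand) had the largest covered share of the 7 windows, 21.6% in H82 and 20.97% in H146, in a stretch of chromosome 19 full of other genes. The region around it includes SYMPK, whose TSS lies at -0.795 kb, as well as SIX5, DM1-AS, DMPK, DMWD, RSPH6A, IRF2BP1, MYPOP, NANOS2 and NOVA2, all of which had a region at the TSS in both lines. MEIOSIN had none in either. The broadest regions, of 9990 bp in H82 and 7302 bp in H146, lay over DMPK and SIX5 rather than over FOXA3.

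FOXA3 itself looked alike in both lines. The 2 kb around its TSS was fully covered, and the gene body was covered to 23.5% in H82 and 22.8% in H146. The window had 36 regions in H82, of which 10 were found there only (27.8%, against 40.7% of all H82 regions). It had 30 in H146, of which 5 were found there only (16.7%, against 29.5%). Matched regions were wider in H146 in 8 of 18 pairs and identical in 3.

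NKX2-1 (chr14:36516392-36521149, minus strand) had the sparsest window of the 7 genes, with covered shares of 4.75% in H82 and 4.55% in H146. The window held 14 regions in H82 and 11 in H146. The region at its start was 2114 bp wide in H82 and 1834 bp in H146 and covered the MANE Select TSS in both lines. It overlapped NKX2-1-AS1 and the protein-coding annotation of SFTA3, whose TSS is the same base as that of NKX2-1, so that the promoters of these genes cannot be told apart.

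Next to NKX2-1 the lines differed in small regions. In H82, regions of 322 bp and 370 bp lay at -4.4 kb and -6.259 kb, and regions of 269 bp, 588 bp and 200 bp lay at 7.303 kb, 10.46 kb and 15.47 kb, none of which overlapped a region of H146. The first of the latter, printed above, was at the start of the lncRNA annotation of SFTA3, which was thereby open in H82 only. In H146 the regions absent from H82 were farther away, at -32.56 kb and 70.25 kb. Regions of one line only made up 35.7% of the window's H82 regions and 18.2% of its H146 regions, against 40.7% and 29.5% of all regions. The start of NKX2-8, a related homeobox gene, had a region in each line, of 2118 bp in H82 and of 2085 bp in H146. Over the gene and 50 kb to either side, the log2 ratio of covered share, H82 over H146, was 0.503, against 0.0622 over the full window.

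**Figure D2:**
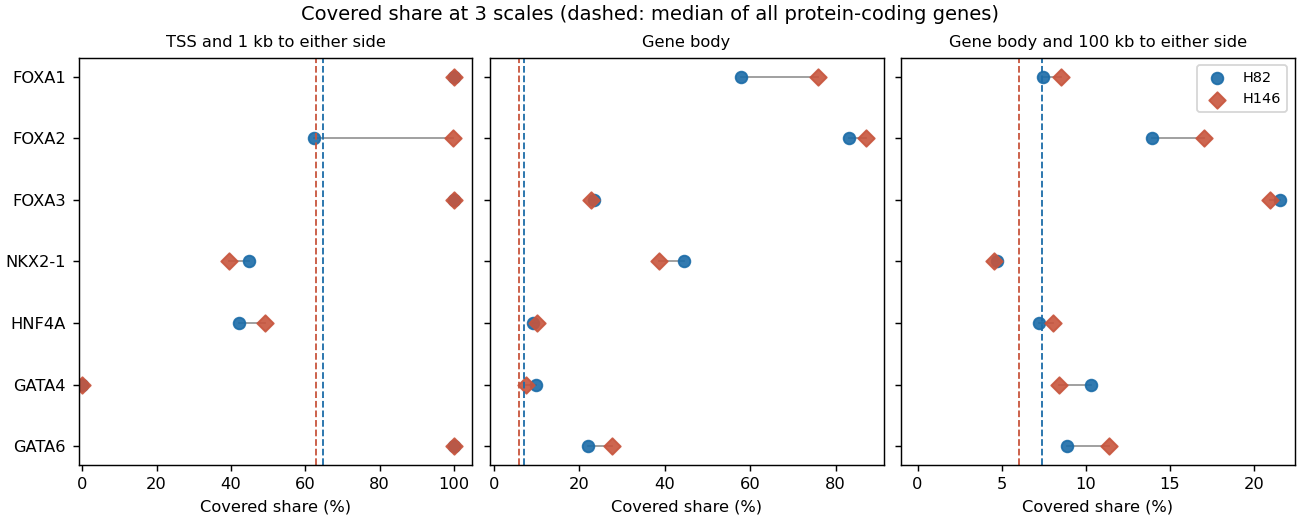
Covered share (%) of the 2 kb around the TSS, of the gene body and of the gene window for each gene, with H82 as circles and H146 as diamonds and dashed lines at the medians of all protein-coding genes. The gene bodies of FOXA1 and FOXA2 were covered to between 57.8% and 87.2%, and the TSS of FOXA2 was covered to 62.3% in H82 and 99.8% in H146. The medians were not matched for gene length.

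HNF4A (chr20:44355699-44432845, plus strand) is transcribed from 2 promoters, of which the downstream one is used chiefly in liver. Both were open in both lines. The 2 kb around the upstream TSS was covered to 42.2% in H82 and 49.3% in H146, and the 2 kb around the downstream TSS, 45.54 kb into the gene, was covered to 12.7% in H82 and 33.9% in H146. All 10 annotated TSS positions had a region within 1 kb in both lines.

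In the HNF4A window, 21 of 38 H82 regions (55.3%) and 21 of 31 H146 regions (67.7%) overlapped a region of the other line, where 59.3% and 70.5% of all regions did. The covered shares were 7.21% and 8.08%. Of the bases covered in either line, a fraction of 0.409 was covered in both, which was above that of 24.4% of all genes. H82 had more but narrower regions, with a median width of 395 bp against 627 bp. The broadest H146 region, 2397 bp over LINC01620, was covered to 8.34% in H82.

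GATA4 (chr8:11676959-11760002, plus strand) had the lowest fraction of covered bases in common between the lines of the 7 genes. No region lay within 1 kb of its outermost TSS in either line, and the nearest was 9.81 kb away in H82 and 12.95 kb away in H146. The MANE Select TSS, 27.24 kb into the gene, lay inside the broadest H82 region of the window, of 3627 bp (chr8:11701952-11705578). In H146 the nearest region to it ended 1.68 kb before it, measured 986 bp and covered 15.9% of the H82 region. Of 8 annotated TSS positions, 6 had a region within 1 kb in H82 and 2 in H146.

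The GATA4 window held 35 H82 regions and 30 H146 regions, which took up 10.29% and 8.41% of it. Of these, 15 were found in H82 only (42.9%) and 10 in H146 only (33.3%), against 40.7% and 29.5% of all regions. The fraction of covered bases that the lines had in common was 0.373, above that of 18.5% of all genes. The outermost starts of LINC00208, with an H82-only region of 2713 bp, and of FDFT1, an enzyme of sterol synthesis, were open in H82 only. Other starts of FDFT1 were not examined. Farther into FDFT1, overlapping regions of 2173 bp in H82 and 2623 bp in H146 were open, so that the gene was not closed in H146. Those of NEIL2 and CTSB were open in both. In its surroundings the covered share was 14.4% for H82 and 6.55% for H146, so that the wider surroundings differed more (log2 ratio 1.12) than the window itself (log2 ratio 0.289).

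GATA6 (chr18:22169589-22202528, plus strand) had more regions in H146, 34 against 24, and a larger covered share, 11.4% against 8.88%. Chromosome 18 as a whole likewise had more regions in H146, 9658 against 7620. The GATA6 promoter was broadly open in both lines, in a region of 4870 bp in H82 and 5529 bp in H146 that began at the same base. It also held the start of GATA6-AS1. Regions covered 21.9% of the gene body in H82 and 27.7% in H146.

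Of the 34 H146 regions of GATA6, 13 were found in H146 only (38.2%), and of its 24 H82 regions, 3 in H82 only (12.5%). Over chromosome 18 these shares were 34.2% and 11.2%, and over all regions 29.5% and 40.7%. Of the 13, 6 were upstream of the gene, 5 downstream and 2 in introns, and the widest, of 771 bp, lay 5.168 kb into the gene. The intronic region at 19.06 kb printed above was the other one within the gene. Of the 21 pairs of matched regions, 7 were identical, 11 were wider in H146 and 3 in H82, and 15 had at least 1 edge in common (71.4%, against 66.5% on chromosome 18 and 43.9% of all pairs). Without the identical regions the median log2 ratio of widths, H82 over H146, was -0.22, against -0.337 on chromosome 18 and -0.137 over all pairs.

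**Figure D3:**
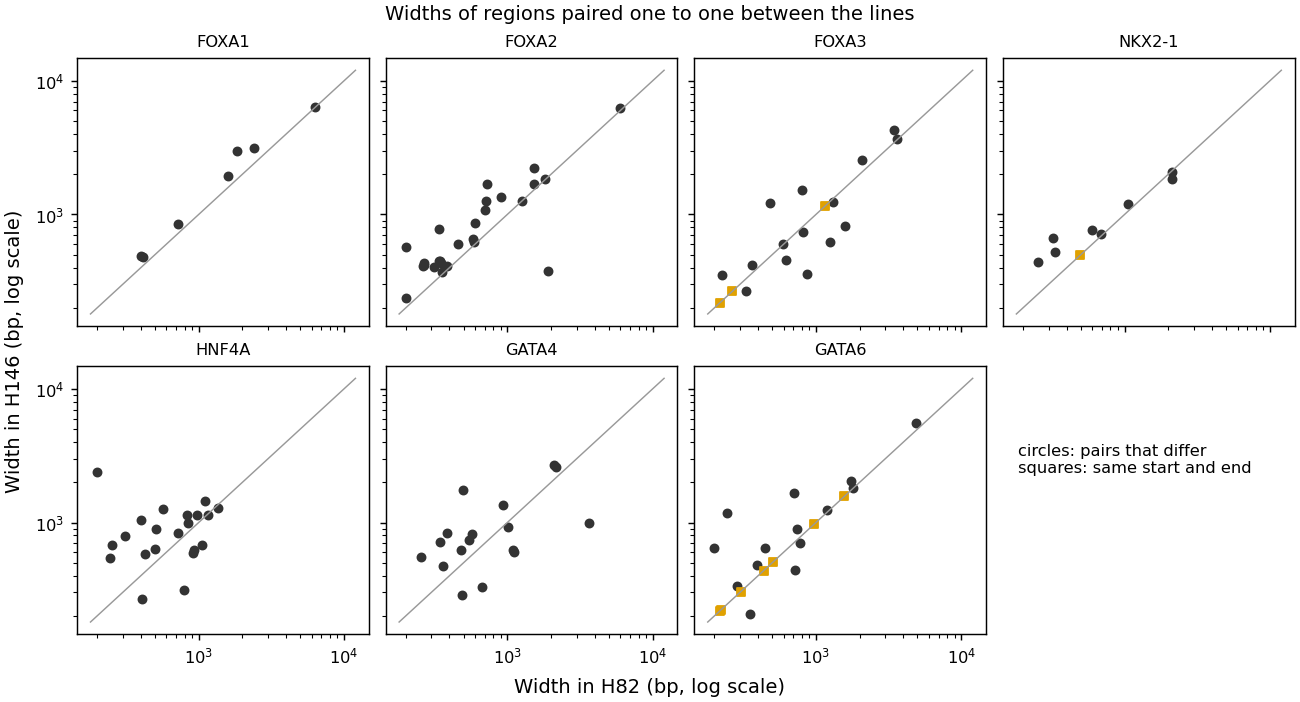
Width in H82 (horizontal) and H146 (vertical), in bp on log scales, of regions matched 1 to 1 around each gene. The line marks equal width, and squares are regions with the same first and last base. Points lay above the line in 7 of 7 pairs for FOXA1 and 25 of 26 for FOXA2, and the squares numbered 7 for GATA6, 3 for FOXA3 and 1 for NKX2-1.

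Across the 7 windows, the covered share was higher in H146 for FOXA1, FOXA2, HNF4A and GATA6 and higher in H82 for FOXA3, NKX2-1 and GATA4. The log2 ratio, H82 over H146, computed after adding 0.1 percentage points to each share, was -0.35 for GATA6, -0.29 for FOXA2, -0.18 for FOXA1, -0.16 for HNF4A, 0.0396 for FOXA3, 0.0622 for NKX2-1 and 0.289 for GATA4. No gene reached a 2-fold difference in either direction, which 13.3% of all genes did towards H82 and 0.684% towards H146. The median over the 7 genes was -0.16 and that over all genes 0.2002 (quartiles -0.11 and 0.645), and 6 of the 7 lay below the latter. With no replicate, whether these differences exceed the spread between libraries cannot be told.

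**Figure D4:**
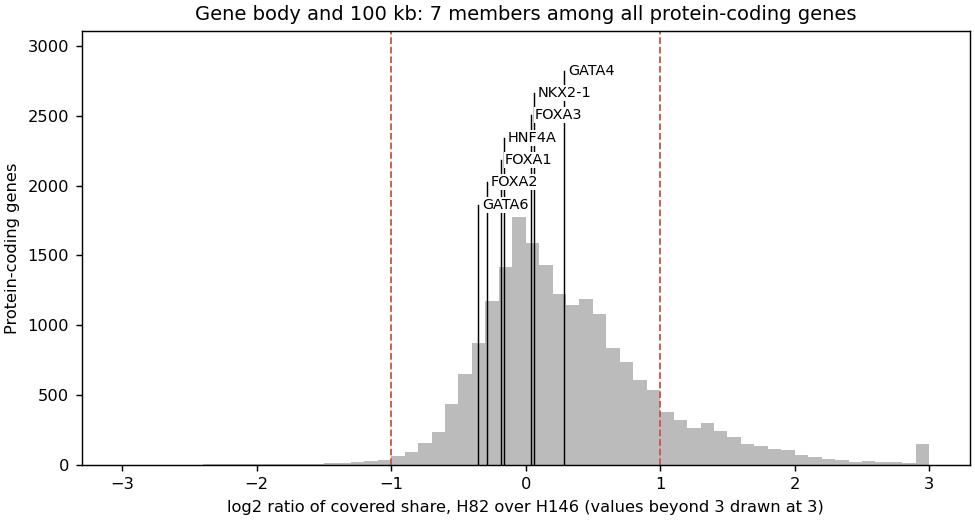
Distribution over 20033 protein-coding genes of the log2 ratio of covered share of the gene window, H82 over H146, with the 7 genes marked and dashed lines at 2-fold. The genes lay between -0.35 (GATA6) and 0.289 (GATA4), within the dashed lines, and 6 of them lay below the median of all genes, 0.2002.

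By the number of regions the picture was different. H82 had more regions for FOXA3, NKX2-1, HNF4A and GATA4 and H146 had more for FOXA1, FOXA2 and GATA6, and the median log2 ratio of numbers was 0.216, close to the 0.222 of all genes. The matched regions were wider in H146 in 82 of 119 pairs (68.9%) and in H82 in 26, and 11 were identical. Over all 113588 pairs, 57.2% were wider in H146, 29348 were wider in H82 and 19328 had equal width. Equal widths count in both shares and were more frequent over all pairs. Among the 7 genes, the share wider in H146 was highest for FOXA1 (7 of 7) and FOXA2 (25 of 26). It lay between 44.4% and 66.7% for the others. The median width was 530 bp in H82 and 591 bp in H146, against 482 bp and 499 bp over all regions.

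Most regions around these genes were found in both lines. Of the H82 regions, 134 of 187 (71.7%) overlapped an H146 region, against 59.3% of all H82 regions. In the other direction it was 131 of 180 (72.8%, 65.9% to 78.8%), against 70.5%. Without the identical regions these shares were 69.9% and 71.01%. The same shares over all regions were not computed, and 59.3% and 70.5% still include identical regions. Identical regions made up 5.88% of the H82 and 6.11% of the H146 regions around these genes, against 9.27% and 11.02% of all regions. Leaving them out would therefore lower the shares over all regions by more than those around these genes. By gene, the share of H82 regions that overlapped an H146 region was highest for FOXA2 (100%) and GATA6 (87.5%). For the other genes it lay between 55.3% and 72.2%. GATA6 lies on chromosome 18, where 11.2% of all H82 regions were found in H82 only. Regions of one line only were narrow, with medians of 311 bp in H82 and 295 bp in H146, whereas shared regions had medians of 682 bp and 780 bp.

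The fraction of bases covered in both lines, among those covered in either, had a median of 0.619 over the 7 genes and 0.519 over all genes. FOXA1 (0.705) and FOXA2 (0.685) had the highest values, above 89.9% and 87.1% of all genes. NKX2-1 (0.651), GATA6 (0.619) and FOXA3 (0.6002) followed, and HNF4A (0.409) and GATA4 (0.373) lay below the median of all genes.

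The words of these factors were then counted in the regions. The genes were chosen with earlier results of these data known, so these counts are a description and not independent support. Among all regions of one line only, the FOXA word had a density of 0.130 matches per kb where only H82 was open and 0.315 where only H146 was, with a log2 ratio of -1.28. The same word read backwards, CATTTGT, which has the same base composition, gave a log2 ratio of -0.54. Of the 23 chromosomes examined (the autosomes and X), the FOXA word was denser in the H146-only regions on 23 and the reversed word on 22, as was CAGCTG on 22, and the OTX2 word was denser in the H82-only regions on 23.

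The words of the other factors among the 7 genes differed less between the lines. The NKX2-1 word had densities of 0.227 and 0.183 matches per kb in the same order and a log2 ratio of 0.310, against -0.081 for AGTTCAC, the same word backwards. Within GATCACTTGAG, a stretch of the Alu repeat, the ratio was 0.775, and outside it was 0.182. The GATA word had a log2 ratio of -0.042 (AATAGA, -0.46) and the HNF4 word one of -0.26 (ACCTGAAAC, -0.55), from 538 and 277 matches of the latter. Of the words of other factors, that of OTX2 differed more than the FOXA word and in the opposite direction, with densities of 1.262 and 0.448 matches per kb (log2 ratio 1.49). Matches within an Alu stretch were set apart for the NKX2-1 word only, so their part in the OTX2 ratio was not tested. The E-box CAGATG had a log2 ratio of 0.468, and for CAGCTG it was -0.12.

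**Figure D5:**
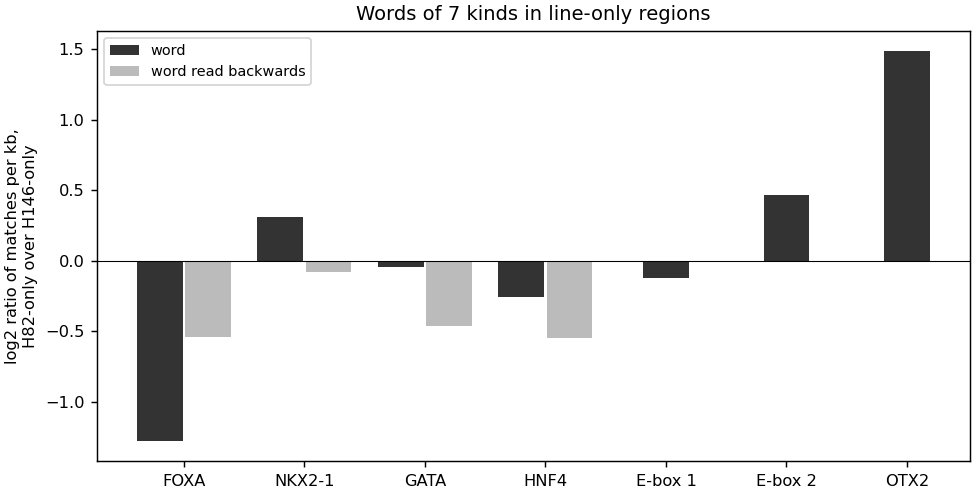
Log2 ratio of matches per kb in H82-only over H146-only regions of the whole atlases, for the words of FOXA, NKX2-1, GATA, HNF4, the E-boxes CAGCTG (E-box 1) and CAGATG (E-box 2) and OTX2 (dark), and for the first 4 read backwards (light). The FOXA word was at -1.28 against -0.54 backwards, the NKX2-1 word at 0.310 against -0.081, and the OTX2 word at 1.49.

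Around the 7 genes themselves, the FOXA word was found in 17 of 187 H82 regions (9.09%, against 10.7% of all H82 regions) and in 29 of 180 H146 regions (16.1%, against 13.6%). Per kb it was more frequent in the H146 regions of all 7 genes, and the reversed word in those of 5. For FOXA3, NKX2-1 and GATA4 the number of matches was the same in both lines (3, 2 and 3) and only the length covered differed. In regions of one line only it was found in 2 of 53 in H82 and 6 of 49 in H146, the latter at FOXA1, GATA6 and GATA4. Over all line-only regions the FOXA word was found in 6.28% and 10.8%. The NKX2-1 word was found in 8 and 4 of the line-only regions of the 7 genes (10.5% and 6.51% of all), and the GATA word in 11 and 11 (25.7% and 20.7% of all).

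Genes related to these factors were examined in the same way, from lists that were written with earlier results of these data known. Of 14 other endoderm and foregut factors, 12 had a region at the TSS in both lines, none in H146 only, and CDX2 in H82 only. At the MANE Select TSS, HNF4G changed from both lines to neither. CDX2, the intestinal homeobox factor, had covered shares of 4.35% in H82 and 2.88% in H146. None of the 14 reached 2-fold with 0.1 percentage points added, which 13.3% of all genes did towards H82 and 0.684% towards H146. SOX17, an early endoderm factor, came close (2.297% and 1.106%, log2 ratio 0.991). The median log2 ratio over the 14 was 0.359, against 0.2002 over all genes.

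Of 12 lung epithelial genes known as targets of NKX2-1, 6 had a region at the TSS in both lines, 3 in neither, the secretoglobin SCGB3A2 in H82 only, and the surfactant gene SFTPA2 and the club cell gene SCGB1A1 in H146 only. The shares of all genes were 75.4% in both lines, 17.7% in neither, 5.1% in H82 only and 1.86% in H146 only. At the MANE Select TSS, SCGB1A1 was open in both lines and SCGB3A2 in neither. With that TSS, SLC34A2 also changed from neither line to both, and SFTPC from both lines to neither. HOPX, a homeobox gene of alveolar cells, was the only gene of this list with a 2-fold difference, with covered shares of 4.79% in H82 and 1.54% in H146 (log2 ratio 1.58). Over all genes, 13.3% reached 2-fold towards H82 and 0.684% towards H146. The median log2 ratio over the list was -0.21, against 0.2002 over all genes.

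Of 10 hepatocyte genes regulated by HNF4A and FOXA factors, 4 had a region at the TSS in both lines (APOA1, APOB, TTR and TF, of which TTR had none at the MANE Select TSS) and 6 in neither, among them the albumin gene ALB and CYP7A1, the rate-limiting enzyme of bile acid synthesis. Of all genes, 75.4% had one in both lines and 17.7% in neither. All 10 had a larger covered share in H146, with a median log2 ratio of -0.36, against 0.2002 over all genes. None of the 10 reached 2-fold, which 0.684% of all genes did towards H146 and 13.3% towards H82.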

How the data were processed

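ATAC-seq of H82 and H146 cells was analysed from the 2 deposited atlases. The authors trimmed reads with Trim Galore 0.4.4, aligned them to hg38 with Bowtie2 2.3.4, removed duplicates, called regions per sample with MACS2, removed blacklisted regions and merged those of a line within 500 bp. Deposited values are region starts and ends in bp, with no score, count or sample, so that width reflects merging (columns with values for single samples: 0). A planned edgeR test of FHD-286, for the case of deposited counts per sample, was not run. One untreated H146 library shared a sequencing batch with those given FHD-286; its identity is not in the labels.

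Starts were made 1-based. Regions on 24 chromosomes were placed on GENCODE release 44 with Python 3.11.15 and numpy 2.4.6. Regions were shared if they overlapped by at least 1 bp. Interval counts were tested on simulated data. The members and lists were chosen with earlier results of these data known, and some list genes are not reported here. Named were the 7 genes, list genes whose TSS state differed or whose covered share differed 2-fold, neighbours within 100 kb, regions over a TSS, the widest regions, and the 2 genes most alike in profile. Other genes and regions were named after their values were seen. Alternatives varied the TSS, flank, minimum width, pseudocount, overlap and motif measure. Leaving out identical regions, the MANE Select TSS, the matching of widths and the Alu stretch were chosen after seeing the data.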

Additional observations from a re-analysis of the deposited data

How the results depend on the processing

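Neither the replicates nor the libraries could be left out in turn, since each atlas pools them. No paired analysis was possible because the files hold no value per sample. The ratio of covered share of single genes was recomputed 49 times in all and reached 2-fold in none. It changed sign in 7, all of FOXA3, NKX2-1 or HNF4A. HNF4A ranged from -0.47 with regions of at least 500 bp to 0.285 by number of regions, NKX2-1 from -0.14 to 0.503, and FOXA3 from -0.24 to 0.255. FOXA1, FOXA2 and GATA6 stayed negative and GATA4 positive. The median over the 7 genes became 0.216 by number of regions, and 1 gene, GATA4, had a region at the TSS in H82 only when the MANE Select TSS was used. With an overlap of 50% of both regions, 50.8% of H82 and 52.8% of H146 regions were shared. By share of regions with a match in place of matches per kb, the log2 ratios were -0.78 for FOXA, 0.689 for NKX2-1, 0.310 for GATA and 0.235 for HNF4, and with 50% overlap that of FOXA was -0.85. Words read backwards gave -0.54, -0.081, -0.46 and -0.55, in the same order. The direction for GATA and HNF4 thus depended on the measure, and the cause was not tested. The share of regions with a match also depends on region length, which differed between the lines. The 84208 H82-only regions spanned 44413 kb and the 51303 H146-only regions 19104 kb. Unknown depth limits every comparison of region number and width.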

Other observations

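The pattern of open chromatin along each gene was described by the covered share of 20 bins of 10 kb around the TSS. The correlation between the lines over these bins, given as a description since neighbouring bins share regions, was 0.971 for FOXA1, 0.967 for FOXA2, 0.928 for GATA6, 0.874 for NKX2-1, 0.863 for FOXA3, 0.621 for GATA4 and 0.533 for HNF4A, beside a median of 0.856 over 19799 protein-coding genes.

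Over the 40 values of both lines together, the genes on other chromosomes with the most similar pattern were EME2 (Pearson r = 0.920) and TSHZ3 (0.912) for FOXA1, ETV1 (0.919) and PPP3CA (0.907) for FOXA2, and CLVS2 (0.890) and PPP3CA (0.875) for GATA6. For NKX2-1 they were TRAF5 (0.805) and ALPK3 (0.793), and for FOXA3 ZC3H13 (0.787) and CLEC4A (0.763). The nearest genes were less alike for GATA4 (XPNPEP2, 0.692, and ENSG00000289694, 0.684) and HNF4A (TRIM11, 0.628, and ARGLU1, 0.622).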
